A study of Mus musculus with 6 samples.

Results

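The genes described here encode developmental transcription factors, and were chosen by symbol: *Pax*, *Sox*, *Gata*, *Tbx*, *Lhx*, *Irx*, *Dlx*, *Msx*, *Emx*, *Otx*, and *Nkx* genes with a number, and the numbered sine oculis genes, such as *Six2* and *Six4*. A few further genes of these families were not analysed here. Of 91 genes with such a symbol, 85 had at least 1 CpG site with 10 or more reads in all 6 samples at 5 kb or less from their transcription start site (TSS). They held 4445 of the 472734 sites that met these limits, 2606 at 0 to 1 kb (the promoter class) and 1839 at 1 to 5 kb (the flank class). *Gata1*, *Lhx3*, *Nkx2-6*, *Pax4*, *Tbx10*, and *Tbx22* had no such site.

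GS cells are spermatogonia kept in culture, and some of them are spermatogonial stem cells. Space GS cells were cryopreserved for 6 months on the International Space Station and Ground GS cells for 6 months on earth, with 3 biological replicates in each group. The paper states that the cells were thawed, cultured, and passaged before DNA methylation was analyzed, so the levels are not those of cells taken straight from storage. Cells of both groups carried the genotype DBA/Tg14(act-EGFP-OsbY01), an EGFP transgene crossed from C57BL6 into DBA/2 mice and, by its name, driven by an actin promoter, so there were no cells without cryopreservation or without the transgene. DNA methylation was measured by reduced representation bisulfite sequencing (RRBS), which reads CpG-rich fragments, and the DNA methylation level is the percent of reads that were methylated. Reads over all sites came to 28535973 to 33743845 per sample and reads at the sites of the regulator genes to 138617 to 161223, with a median coverage of 29 to 33 reads per site. Among 12 germ cell genes with promoters that are methylated in most somatic cells, such as *Dazl* and *Ddx4*, 9 had 3 or more promoter sites, and these had levels of 0.740% to 7.03%. Of 7 markers of somatic cells that the culture could hold, *Vim*, *Wt1*, and *Cldn11* had 3 or more promoter sites, with levels of 1.24%, 2.02%, and 19.2%. Promoter methylation does not measure expression, so this is a check of levels only and names no cell type.

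These transcription factors lay down the body plan, the nervous system, and the organs of the embryo, and most are off in spermatogonia. Their promoters typically lie in long CpG islands, which stay free of DNA methylation even where the gene is silent, because Polycomb proteins and not DNA methylation usually hold such genes off. The *Gata* proteins are zinc finger factors, *Sox* proteins bind DNA with an HMG box, *Tbx* proteins with a T-box, *Pax* proteins with a paired domain, and the other families with a homeodomain.

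The promoters were rich in CpG and varied in it. In the RefSeq promoter sequences of mouse build GRCm38.p6, 60 of the regulator genes had 72 windows of 300 bases, with a median of 20.5 CG dinucleotides, against a median of 7 in all 32851 windows of 27025 genes. The sequence CCGG, which reads the same on both strands and is cut by MspI, the usual enzyme of RRBS, occurred in 83.3% of the windows of regulator genes and in 52.8% of all windows. The deposited sites are in build mm39, so the windows were matched by gene symbol, and no site was placed on them. The windows of regulator genes held from 3 CG in *Sox5* to 47 in *Sox12*. The *Sox5* window lay 834871 bp from the gene start in the GENCODE annotation, so it may not be the promoter whose sites were measured. The 250 bases before the RefSeq start are printed for 5 genes that differ in CG content, with each CG in capitals. They are *Nkx2-4* (chr2:147085346-147085595, minus strand), *Irx2* (chr13:72628570-72628819, plus strand), *Msx3* (chr7:140049089-140049338, minus strand), *Tbx21* (chr11:97115332-97115581, minus strand), and *Tbx6* (chr7:126781233-126781482, plus strand).
Nkx2-4: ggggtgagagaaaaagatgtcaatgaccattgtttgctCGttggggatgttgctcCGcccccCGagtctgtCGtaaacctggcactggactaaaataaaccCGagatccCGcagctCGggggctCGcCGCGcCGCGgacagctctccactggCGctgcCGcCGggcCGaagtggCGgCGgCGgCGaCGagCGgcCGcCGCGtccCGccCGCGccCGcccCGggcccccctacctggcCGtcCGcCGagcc
Irx2: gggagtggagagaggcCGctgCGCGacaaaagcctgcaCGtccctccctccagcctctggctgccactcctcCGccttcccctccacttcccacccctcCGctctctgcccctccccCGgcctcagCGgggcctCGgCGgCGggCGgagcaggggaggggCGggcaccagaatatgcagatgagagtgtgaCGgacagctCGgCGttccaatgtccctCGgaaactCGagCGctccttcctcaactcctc
Msx3: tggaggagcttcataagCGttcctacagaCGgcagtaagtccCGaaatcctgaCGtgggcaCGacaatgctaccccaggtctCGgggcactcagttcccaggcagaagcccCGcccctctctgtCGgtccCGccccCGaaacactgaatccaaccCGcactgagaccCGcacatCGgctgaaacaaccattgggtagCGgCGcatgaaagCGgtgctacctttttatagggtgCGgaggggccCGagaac
Tbx21: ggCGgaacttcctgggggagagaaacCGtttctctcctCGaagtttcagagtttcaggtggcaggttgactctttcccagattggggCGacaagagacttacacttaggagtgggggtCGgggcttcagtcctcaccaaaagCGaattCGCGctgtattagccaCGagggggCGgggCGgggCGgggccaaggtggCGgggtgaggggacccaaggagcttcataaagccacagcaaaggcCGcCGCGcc
Tbx6: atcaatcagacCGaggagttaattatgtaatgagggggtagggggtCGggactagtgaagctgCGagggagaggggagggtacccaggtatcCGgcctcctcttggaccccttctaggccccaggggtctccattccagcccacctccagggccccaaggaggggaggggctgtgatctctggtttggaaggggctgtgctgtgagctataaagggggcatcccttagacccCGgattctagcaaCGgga

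These 250 bases hold 33 CG in *Nkx2-4*, 19 in *Irx2*, 18 in *Msx3*, 16 in *Tbx21*, and 6 in *Tbx6*. The whole window of *Nkx2-4* held 38, a number reached by 4.95% of all windows, and the window of *Tbx6* held 7, which 52.1% of all windows reached. The promoter levels of these genes, as means over the 6 samples, were 0.973% in *Nkx2-4*, a homeodomain gene of the ventral forebrain, 1.99% in *Irx2*, an Iroquois gene, 1.16% in *Msx3*, a gene of the dorsal neural tube, 1.72% in *Tbx21*, which encodes T-bet of T helper cells, and 4.44% in *Tbx6*, a gene of the paraxial mesoderm. The promoter with the fewest CG had the highest of these 5 levels, but it also rested on only 7 sites, against 123 sites in *Nkx2-4*. Among other windows with few CG, *Sox15* with 5 had a promoter level of 0.967% and *Pax8* with 7 had 4.73%. A relation of CG number to level was not tested.

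The promoters of regulator genes were nearly free of methylation in both groups. Of 79 genes with a promoter site, 74 had 3 or more, and their median level was 1.97% over the 6 samples, close to the 1.82% of all 14373 genes with 3 or more promoter sites. Levels were under 10% in 72 of 74 regulator genes (97.3%) and in 95.3% of all genes, and 71 regulator promoters were under 5%. No regulator promoter was over 80%, a level that 1.87% of all promoters exceeded. With 10 or more sites, all 61 regulator promoters and 99.3% of all 10901 promoters were under 10%.

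The flanks of regulator genes were low as well, whereas many flanks of other genes were methylated. The 65 regulator flanks with 3 or more sites had a median level of 3.44%, against 12.8% in all 5551 flanks. The median number of sites was 23 in regulator flanks and 7 in all flanks. A level under 10% was found in 56 of 65 regulator flanks (86.2%) and in 47.5% of all flanks, while 28.2% of all flanks and 0 of 65 regulator flanks were over 80%. At single sites, 93.6% of the 1839 flank sites of regulator genes and 75.8% of all flank sites were under 10%, and 2.12% and 17.1% were over 80%. Genes with both classes rose by a median of 0.751 percentage points from promoter to flank in 56 regulator genes and by 3.38 percentage points in all 3498 genes. The rise was over 10 percentage points in 7 regulator genes (12.5%) and in 42.1% of all genes. Neighboring sites share reads and genes are not replicates, so these are descriptions with no test.

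The low level reached far from the TSS. As means of genes, regulator genes had 3.84% at 0 to 1 kb, 5.59% at 1 to 2 kb, 17.1% at 2 to 3 kb, 18.5% at 3 to 4 kb, and 21.1% at 4 to 5 kb, while all genes rose from 8.63% to 34.7%, 56.3%, 61.3%, and 63.4%. The mean lay above the median, as 68.8% of the 32 regulator genes at 4 to 5 kb were under 10% and their median was still 4.66%, where the median of all genes was 92.2%. Just outside the limit of 5 kb, at 5 to 10 kb, 47 regulator genes had a median of 5.28% and a mean of 26.3%, against a median of 93.5% in all genes. Beyond 20 kb their median was 69.1%. Downstream flanks of 51 regulator genes had a median of 2.52% and upstream flanks of 29 regulator genes 4.36%. In all genes these medians were 4.74% downstream and 29.0% upstream.

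**Figure D1:**
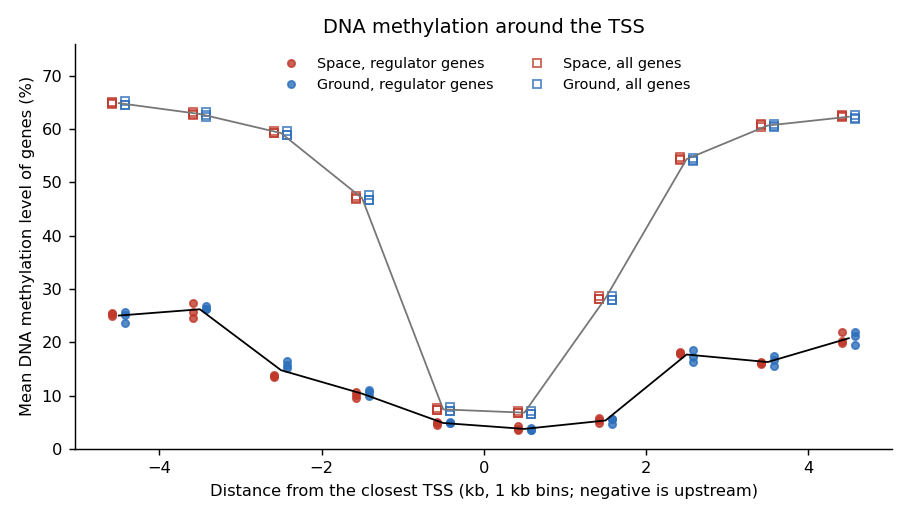
Mean DNA methylation level of genes (percent, vertical axis) in 1 kb bins of the distance from the closest TSS, drawn to 5 kb on each side (horizontal axis, upstream negative). Filled circles are regulator genes and open squares are all genes, red for each Space replicate and blue for each Ground replicate, and lines join the means over the 6 samples. Regulator genes stay below all genes in every bin drawn, at 5.59% and 34.7% for 1 to 2 kb on both sides, and the replicates of both groups lie on each other.

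The levels moved with how densely the covered sites lay, and the part of density in the low flanks was not tested. Sites were grouped in runs of neighbors at most 100 bp apart. In flank runs of 20 or more sites, the mean site level was 1.86% for regulator genes and 1.91% for all genes. It was 2.99% and 5.99% in runs of 10 to 19 sites, 9.29% and 37.0% in runs of 3 to 9 sites, and 25.9% and 66.3% in runs of 1 or 2 sites. Long runs held 43.9% of the flank sites of regulator genes and 41.9% of those of all genes, while runs of 1 or 2 sites held 5.38% and 13.0%. Flanks with 20 or more sites were under 10% in 92.5% of 40 regulator genes and in 91.9% of all 1095 genes. Their median level was 3.01% in regulator genes and 2.19% in all genes. With 10 or more sites the medians were 3.03% and 2.50%, so regulator flanks did not have the lower median at these site numbers. Where sites were dense, regulators and all genes were thus close together, and where they were sparse, regulators had the lower mean. Other regulators whose symbols the rule does not match, such as *Eomes*, *En1*, and *Isl1*, had the same kind of flanks, with a median of 2.81% and 41 of 45 genes under 10%, and a promoter median of 1.79% in 51 genes. Genes of Polycomb proteins had a flank median of 4.16%, with 9 of 15 flanks under 10%, and a promoter median of 1.67%, with all 24 promoters under 10%.

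**Figure D2:**
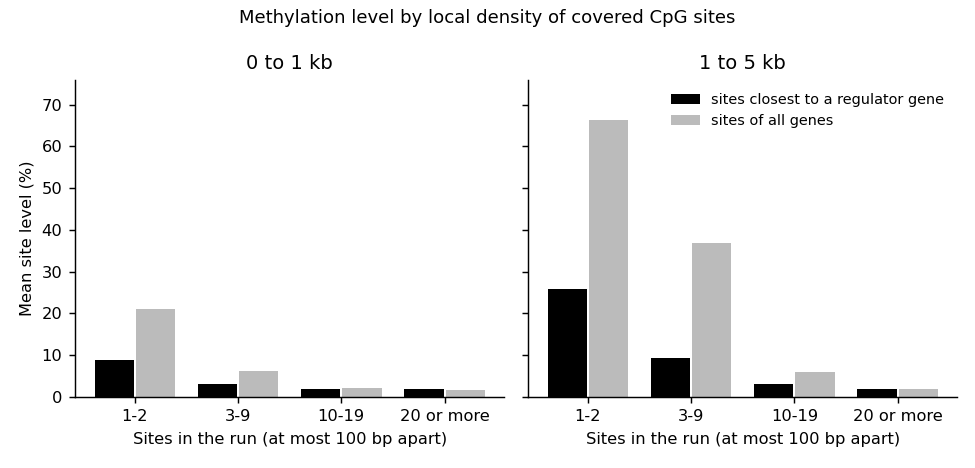
Mean methylation level of single CpG sites (percent, vertical axis) by the number of sites in their run (horizontal axis) for sites closest to a regulator gene (black bars) and sites of all genes (grey bars), with the promoter class on the left and the flank class on the right. In the flank class the bars are 25.9% and 66.3% for runs of 1 or 2 sites and 1.86% and 1.91% for runs of 20 or more.

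Promoters with methylation were few and had few sites. *Nkx6-3*, an NK gene of the stomach, had a promoter level of 37.4%, 31.1%, and 20.7% in Space replicates 1 to 3 and 31.9%, 30.1%, and 29.4% in Ground replicates 1 to 3. Its 3 sites lay 458 to 685 bp downstream of the TSS, and the groups overlapped. In bulk DNA, such a level cannot be told apart from full methylation in a share of the cells or alleles. *Tbx4*, the T-box gene of the hindlimb, had 13.2%, 10.7%, and 7.12% in the Space samples and 14.0%, 12.0%, and 8.63% in the Ground samples. Its methylation lay upstream: 5 sites at 511 to 441 bp before the TSS had a mean level of 24.9%, whereas 4 sites from 34 bp before to 15 bp after the TSS had 3.32%. *Gata3*, a T cell regulator, came next at 7.96%, with 3.33% to 12.0% in single samples. The RefSeq start lay 10343 bp in *Tbx4* and 11434 bp in *Gata3* from the gene start in the GENCODE annotation of build GRCm38. The same distance was 6133 bp in *Lhx9*, 7226 bp in *Six3*, 7841 bp in *Nkx2-2*, 6175 to 11085 bp in the windows of *Otx2*, and 834871 bp in *Sox5*. Some further regulator genes also had a distant window, in *Pax6*, *Lhx2*, and *Pax2* beside a near one. It was 0 to 100 bp in the 5 genes with a printed sequence. Where it is long, the sites at 0 to 1 kb may not be those of the RefSeq promoter, which was not checked.

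*Gata4*, which encodes a factor of the heart and of the somatic cells of the gonad, had the highest level at a TSS. Both of its promoter sites, 7 bp before and 5 bp after the TSS given in the table (chr14:63509141, mm39, minus strand), were methylated, with 92.3%, 95.5%, and 98.7% in the Space samples and 88.3%, 94.7%, and 100% in the Ground samples at 60 to 104 reads per sample. With fewer than 3 sites, *Gata4* was not counted among the 74 promoters. Its flank was low, at 4.23% over 9 sites that lay 2082 to 4022 bp downstream of the same TSS. *Gata4* was the only regulator gene with a site of 50% or more inside 1 kb. In *Nkx6-3*, 4 sites at 2202 to 2241 bp downstream had 93.0% and 19 sites at 4354 to 4540 bp had 1.40%.

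Flanks of 9 regulator genes had a level of 10% or more. The highest was that of *Tbx19*, the T-box gene of pituitary corticotrophs, with 68.8%, 64.7%, and 70.8% in the Space samples and 73.1%, 68.2%, and 75% in the Ground samples, over 4 sites at 4522 to 4431 bp upstream (chr1:164992773-164992864, mm39), 1 of which had 1.28%. *Emx2*, needed for the cerebral cortex and the urogenital tract, had 59.4%, 61.7%, and 65.1% in the Space samples and 52.5%, 57.1%, and 63.8% in the Ground samples. Of its 4 flank sites, those at 1257 to 1194 bp upstream had 72.7% together, the site 2551 bp upstream had 99.03%, and the site 2497 bp upstream had 1.86%, whereas 12 promoter sites at 282 to 99 bp upstream had 1.87%. *Tbx21* had 55.2%, which came from 2 sites at 4837 to 4829 bp upstream with 97.9%. *Dlx4* followed with 43.8% over 21 sites, *Msx3* with 24.0%, *Sox7* with 23.0%, *Dlx6* with 17.9%, *Sox12* with 15.7%, and *Pax7* with 12.2%. All of these 9 genes with a promoter class had promoters under 10%, and *Tbx19* had no promoter site.

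The methylated flanks were of different kinds. *Dlx4*, a Distal-less gene, was intermediate over all 5 of its upstream runs, from 28.1% for 10 sites at 4448 to 4121 bp before the TSS to 73.1% for 4 sites at 4733 to 4689 bp, while 16 sites at 14 to 82 bp after the TSS had 0.160%. In *Pax7*, the regulator of muscle satellite cells, the downstream sites were low to 1909 bp, at 1.91% to 2.40% in 3 runs of 10 to 30 sites, and 4 sites at 3211 to 3236 bp had 71.7%, as 3 of them had 94.0% to 96.8% and the first had 0.407%. *Sox12* was at 1.12% over 89 sites around the TSS and 1.72% over 48 sites to 1217 bp, and reached 71.9% in 6 sites at 2775 to 2850 bp, of which the first had 29.9% and the last 4 had 84.8% to 97.8%. *Msx3* was at 2.53% in 8 sites to 1292 bp and 95.6% in 2 sites at 2205 to 2215 bp. *Dlx6* was at 3.89% to 1499 bp and 91.0% in 3 sites at 3815 to 3865 bp. The levels thus changed from under 5% to over 70% between neighboring runs in *Pax7*, *Sox12*, *Msx3*, and *Dlx6*, with no covered site in the gap.

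**Figure D3:**
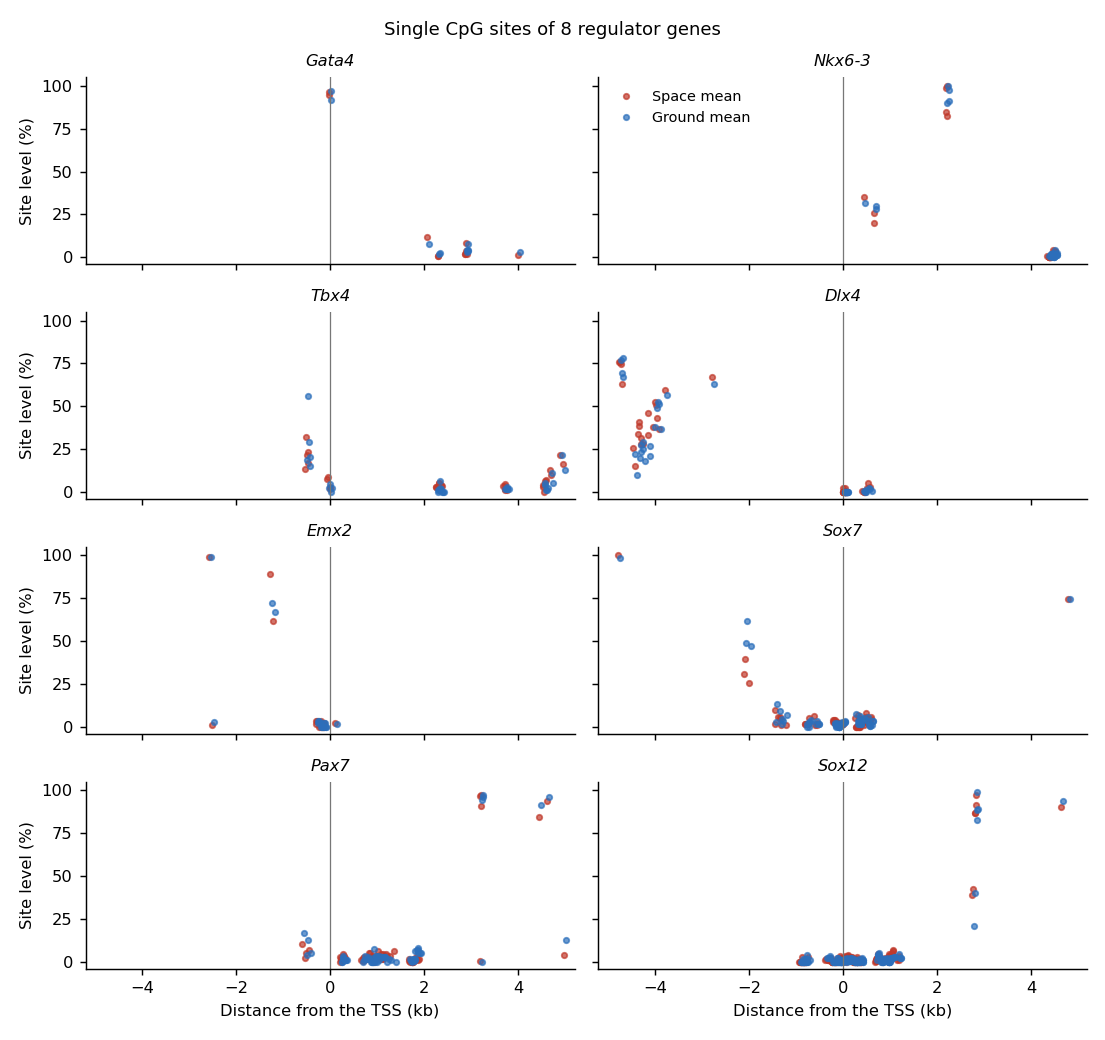
Methylation level of single CpG sites (percent, vertical axis) against distance from the TSS (kb, horizontal axis, upstream negative) in 8 regulator genes, with red points for the Space mean and blue points for the Ground mean of 3 replicates. *Gata4* has methylated sites at the TSS, *Nkx6-3* and *Tbx4* have intermediate promoter sites, and *Dlx4*, *Emx2*, *Sox7*, *Pax7*, and *Sox12* are low around the TSS and methylated farther away; red and blue points overlap in most places.

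A site of 50% or more within 5 kb was found in 18 of 84 regulator genes with 3 or more sites (21.4%) and in 29.4% of all 16603 genes. Among the regulators the median distance of the nearest such site was 2866.5 bp. Apart from genes already named, such sites lay 2903 bp downstream in *Dlx3*, 3401 bp upstream in *Lhx6*, 3359 bp downstream in *Sox10*, and 1245 bp upstream in *Sox4*, whose 4 sites there had 76.4%. Flanks with 1 or 2 sites were methylated in *Lhx4*, a gene of the pituitary (95.7%), *Pax1*, a gene of the vertebral column (94.7%), and *Sox5*, a gene of cartilage (46.8%).

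The lowest flanks were those of *Nkx2-4* at 0.839%, *Sox18*, a gene of blood and lymph vessels, at 1.07%, *Sox11*, a gene of neural progenitors, at 1.20%, *Nkx1-1* at 1.31%, and *Lhx9*, which is required for the gonad to form, at 1.55%. *Nkx2-4* had 2.18%, 0.721%, and 0.539% in the Space samples and 0.568%, 0.472%, and 0.557% in the Ground samples. In *Nkx2-4*, Space replicate 1 alone was high, and the other 5 samples lay between 0.472% and 0.721%. Of these, *Sox18* and *Nkx2-4* were also among the lowest promoters, at 0.894% and 0.973%, next to *Dlx4* at 0.851%, *Nkx2-3* at 0.910%, and *Sox15* at 0.967%. Sites of all genes in promoter runs of 20 or more sites had a mean of 1.58%. A cytosine left unconverted by bisulfite also reads as methylated, and its rate was not estimated here. The order of levels this low is thus a description only.

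By family, the median promoter level lay between 1.45% in *Otx* and 2.47% in *Tbx*. The median flank level was 2.28% in *Msx*, 2.39% in *Sox*, 2.60% in *Lhx*, 2.76% in *Irx*, 3.14% in *Pax*, 3.22% in *Gata*, 3.29% in *Nkx*, 3.59% in the sine oculis family, 4.58% in *Tbx*, 5.35% in *Dlx*, and 31.4% in *Emx*, which had only 2 flanks, *Emx1* at 2.92% and *Emx2* at 59.9%. All flanks were under 10% in *Gata*, *Irx*, *Lhx*, *Nkx*, *Otx*, and the sine oculis family. The highest were *Gata4* (4.23%), *Irx4* (7.19%), *Lhx2* (7.81%), *Nkx2-1* (8.56%), and *Otx1* (2.88%) in their families. In *Dlx* 4 of 6 flanks, in *Emx* 1 of 2, in *Msx* 2 of 3, in *Pax* 4 of 5, in *Sox* 9 of 11, and in *Tbx* 8 of 10 were under 10%. The level of *Lhx2* rested on 1 site 1535 bp downstream at 34.5%, while its 4 upstream sites had 1.59%.

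**Figure D4:**
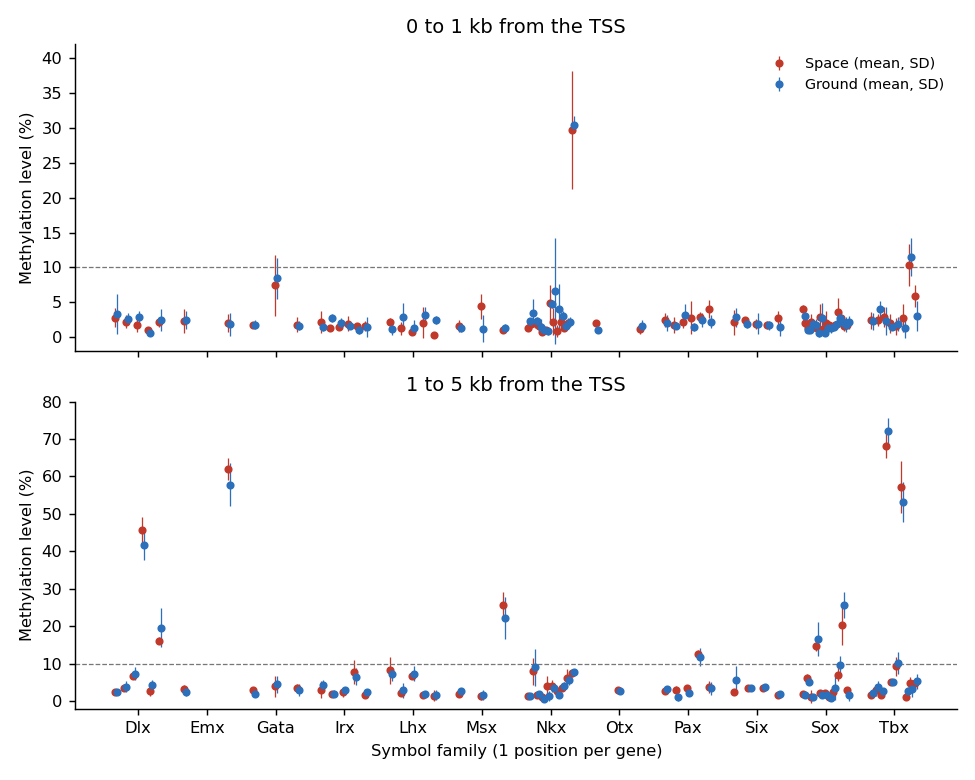
Methylation level (percent, vertical axis) of each regulator gene with 3 or more sites, grouped by symbol family (horizontal axis), with the promoter class above and the flank class below. Red and blue points are means of 3 Space and 3 Ground replicates, bars are SD, and the dashed line is at 10%; 72 of 74 promoters and 56 of 65 flanks lie under it as means of the 6 samples, and Space and Ground points lie close together.

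Most regulators with a known part in the gonad or in germ cells had low promoter levels as well, apart from *Gata4* with its 2 methylated sites. *Sox30*, which acts in spermatids, had 1.42% over 97 promoter sites, and *Sox3*, an X-linked gene used by spermatogonia, had 1.56% in the promoter and 3.09% in the flank. The Sertoli cell genes *Sox9* and *Sox8* had promoter levels of 1.93% and 1.68%. *Six4*, which acts before sex determination, had 1.93%, *Lhx9* had 1.43%, *Lhx2* had 1.66%, and *Emx2* had 1.95%, all in the promoter, while the flank of *Emx2* had 59.9%. *Pax2*, a gene of the urogenital ducts, had 1.69% over 82 sites, and *Sox17*, a gene of the endoderm, had 2.83%. *Pax8* had 1 promoter site at 4.73%, *Gata6* and *Dlx5* had flanks at 3.22% and 3.47%, and *Dlx3* had a promoter at 2.31%. Apart from *Nkx6-3*, *Tbx4*, and *Gata4*, no regulator promoter reached 10%, whether the gene is known from germ cells or not.

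To ask whether storage in space changed these genes, Space and Ground GS cells were compared with a quasi-binomial model of the methylated reads among all reads, moderated with limma, and with Benjamini-Hochberg adjustment over every feature of the table. No regulator promoter, flank, region, or site differed past an adjusted p of 0.05. The count was 0 of 74 promoters against a background of 0% of 14361 promoters, and 0 of 65 flanks against 0% of 5544 flanks. It was also 0 of 273 regions (runs of 3 or more sites) against 0% of 49134, and 0 of 301 sites with a mean level of 5% to 95% against 0% of 92042. At an unadjusted p under 0.05 there were 4 regulator promoters (5.41%, background 5.31%), 3 flanks (4.62%, background 5.54%), 23 regions (8.42%, background 5.65%), and 10 sites (3.32%, background 5.61%). These counts depended on single samples. They were 2 promoters without Space replicate 1 or without Ground replicate 3, 5 flanks without Ground replicate 1 and 1 without Ground replicate 2, and 14 regions without Ground replicate 2. Leaving out Space replicate 1 raised the sites to 21, and leaving out Ground replicate 3 raised them to 20. Over the whole table, this count was 677 promoters without Space replicate 1 and 692 without Ground replicate 3 (main 763). It was 371 flanks without Ground replicate 1 and 288 without Ground replicate 2 (main 307). For all sites it was at most 5884 under any alternative (main 5161), and for all regions 1831 to 4306 (main 2776). Neither edgeR nor limma on log2 ratios called any of the promoters or flanks at an adjusted p under 0.05, and over all genes they had 572 and 666 promoters and 244 and 277 flanks at an unadjusted p under 0.05, against 763 and 307 in the quasi-binomial test. The smallest adjusted p of a regulator in the quasi-binomial test was 0.912 for promoters, 0.847 for flanks, 0.864 for regions, and 0.792 for sites.

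Levels of the 3 Space and 3 Ground replicates did not overlap in 6 of 74 promoters (8.11%, background 9.55%), 4 of 65 flanks (6.15%, background 9.52%), 24 of 273 regions (8.79%, background 9.25%), and 24 of 301 sites (7.97%, background 9.07%). The direction was mixed, as 39 promoters were higher in Space GS cells (52.7%, background 54.3%) and 35 lower, and 29 flanks were higher (44.6%, background 51.4%) and 36 lower. The median absolute difference was 0.482 percentage points in regulator promoters and 0.598 in all promoters, and 0.704 in regulator flanks and 1.11 in all flanks. A difference of more than 5 percentage points was found in 0 regulator promoters (background 1.35%) and in 1 flank (1.54%, background 8.37%). As the mean over 74 promoters, Space replicates had 2.96%, 2.58%, and 2.37% and Ground replicates had 3.09%, 2.66%, and 2.32%. The mean over 65 flanks was 8.27%, 7.87%, and 7.88% in the Space samples and 8.68%, 7.68%, and 7.73% in the Ground samples. Replicate 1 was the highest of each group in both classes, and the spread within each group, with an SD of 0.302 and 0.383 percentage points for promoters and 0.230 and 0.564 for flanks, was larger than the difference between the groups of -0.0542 and -0.0236 percentage points. Over all genes, replicate 1 was likewise the highest of the Space and Ground groups, at promoters (4.89% and 4.94%) and at flanks (38.3% and 38.4%).

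**Figure D5:**
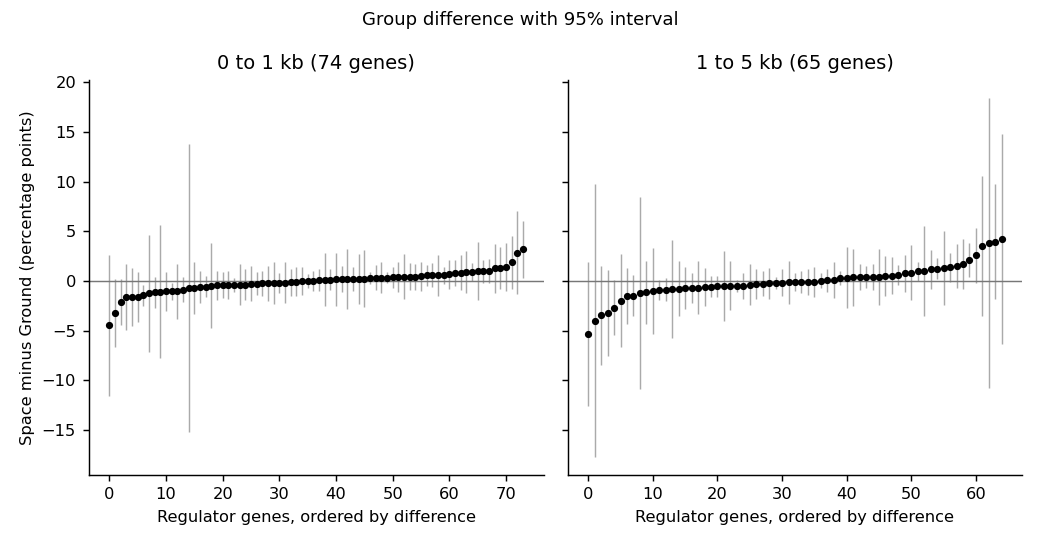
Difference of the group means, Space minus Ground (percentage points, vertical axis), of each regulator gene in order of its difference (horizontal axis) for 74 promoters and 65 flanks, with bars for the 95% interval. The points run from -4.45 to 3.17 for promoters and from -5.33 to 4.23 for flanks, and most intervals cross 0.

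The precision of single genes was set by their reads and by the spread between replicates. The median half-width of the 95% interval was 1.55 percentage points for regulator promoters and 1.99 for flanks. Among promoters, the smallest p was that of *Irx2*, whose promoter sequence is printed above, with 1.03%, 1.56%, and 1.21% in the Space samples and 2.39%, 3.39%, and 2.36% in the Ground samples over 52 sites. Its groups did not overlap, and the difference was -1.44 percentage points (95% interval -2.47 to -0.416, quasi-binomial p = 0.00722, adjusted p = 0.912 with limma moderation). *Nkx1-1* was the next, with 0.875%, 1.68%, and 1.27% in the Space samples and 2.79%, 2.28%, and 1.86% in the Ground samples over 91 sites, and its difference was -1.04 percentage points. *Msx2*, a gene of the skull and limb, had 2.35%, 5.80%, and 5.13% in the Space samples and 0.155%, 3.42%, and 0.173% in the Ground samples over 13 sites. The difference of *Msx2* was 3.17 percentage points, and its groups overlapped through Ground replicate 2. The difference of *Sox11* was 0.944 percentage points and 0.420 without Space replicate 1. *Sox11* (2.04% and 1.10%) and *Lhx9* (0.388% and 2.48%) completed the 5 smallest p values, and none of the 5 had an adjusted p under 0.912. Many of these levels were near the 1.58% of dense promoter runs of all genes, and the part of incomplete conversion in them was not tested. The largest difference of a promoter was that of *Nkx2-9*, an NK gene, at -4.45 percentage points, which came from 14.9% in Ground replicate 2 over 4 sites, while its other Ground replicates had 5.05% and 0%.

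Among flanks, the smallest p was that of *Pax5*, the regulator of the B cell fate, with 4.26%, 2.96%, and 2.18% in the Space samples and 2.08%, 0.813%, and 0.189% in the Ground samples over 12 sites. Its groups did not overlap, but the lowest Space and the highest Ground replicate differed by little, and the difference was 2.10 percentage points (95% interval 0.366 to 3.84, quasi-binomial p = 0.0209, adjusted p = 0.847 with limma moderation). *Gata2*, a regulator of blood stem cells, had 3.07%, 3.74%, and 2.53% in the Space samples and 2.35%, 1.97%, and 1.35% in the Ground samples. The flanks of *Nkx3-2* (2.71% and 1.73%), *Sox4* (7.08% and 9.78%), and *Pax6* (3.55% and 2.18%) followed. The difference of *Sox4* was -2.69 percentage points, -1.68 without Space replicate 2, and -1.44 without Ground replicate 1. In each of these 5 flanks both group means stayed under 10%, although Ground replicate 1 of *Sox4* had 12.3%. The largest difference was that of *Sox7*, a gene of endothelium and endoderm, with 26.1%, 16.5%, and 18.3% in the Space samples and 29.1%, 25.7%, and 22.2% in the Ground samples. The groups differed by -5.33 percentage points (adjusted p = 0.901, quasi-binomial test with limma moderation).

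At the finer scale of regions, the 3 smallest p values belonged to *Pax7*, *Irx3*, and *Pax6*. In *Pax7*, 20 sites at 1689 to 1909 bp downstream of the TSS had 0.798%, 1.47%, and 0.517% in the Space samples and 3.08%, 2.84%, and 3.44% in the Ground samples. In *Irx3*, an Iroquois gene, 26 sites around the TSS had a mean of 0.841% in the Space samples and 3.57% in the Ground samples. *Pax6*, the gene of eye development, had 3.52% and 0.642% over 13 sites at 2107 to 1851 bp upstream. Groups did not overlap in any of the 3 regions, and the adjusted p was 0.864 for each (quasi-binomial test with limma moderation). The region with the largest difference, chosen after its values were seen, was in the upstream flank of *Sox7*, where 3 sites at 2075 to 1969 bp (chr14:64179047-64179153, mm39) had 47.4%, 28.2%, and 20.5% in the Space samples and 50%, 53.8%, and 53.8% in the Ground samples. Its difference was -20.5 percentage points at 13 to 26 reads per site (p = 0.0923, adjusted p = 0.874, quasi-binomial test with limma moderation). The SD was 13.9 among Space replicates and 2.22 among Ground replicates, and Space replicate 1 was close to the Ground replicates. The smallest p of a single site was at 68 bp downstream of the TSS of *Irx2*, which had 0% in the 3 Space replicates and 10.5%, 11.1%, and 14.8% in the Ground replicates at 19 to 30 reads per sample (adjusted p = 0.792, quasi-binomial test with limma moderation). The 0 methylated of 77 Space reads allow a level of up to 3.9% by counting error alone.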

How the data were processed

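DNA methylation was measured by RRBS in 3 Space and 3 Ground samples, which were assigned to groups by their titles. In the deposited table, each CpG site has a count of reads (its coverage) and a percent of methylated reads for every sample, and the closest TSS with its gene. The submitters' processing notes name Trim Galore, Bismark 0.24.2, methylKit, and mm39; settings, read filters, duplicate removal, and the merging of strands are not given in the sources used here. A C-to-T strain difference reads as an unmethylated cytosine, which would lower a level, and was not analysed here.

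The coverage multiplied by the percent gave the methylated reads, within 0.000266 of a whole read. Sites had 10 or more reads in all 6 samples, at which 1 read is worth up to 10 percentage points of a site's level. Reads were summed per gene at 0 to 1 kb and 1 to 5 kb from the TSS, with 3 or more sites for tests and counts. The members and gene lists were chosen with earlier results of these data known. All genes includes the regulators. Named genes were those with the 5 smallest p in each class, promoters of 10% or more, the 5 highest and 5 lowest flanks, the highest flank of each family, a list of genes known from the gonad, and the 3 regions with the smallest p; others were named after their values were seen. A few genes that these rules select are not reported here. The quasi-binomial test took the Pearson dispersion between replicates, moderated by the squeezeVar function (limma 3.58.1, R 4.3.3), was two-sided, and was fitted on the whole table with Benjamini-Hochberg adjustment (threshold 0.05). It was also run on simulated data with planted differences larger than those of the regulator genes, and the outcome is not reported here. That run does not cover differences as small as those found here. Alternatives were coverage minimums of 5 and 20 reads, 1 or more sites per gene, edgeR 4.0.16, limma on log2 ratios with 2 added to each count, regions with gaps to 300 bp, sites at 20% to 80%, a replicate block, and leaving out each sample. Errors are SD over replicates. Reads carry no stated molecular identifier and may repeat a molecule. Other tools were data.table (version 1.17.8), pandas 2.3.3, Python 3.11.15, and matplotlib 3.10.9.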

Additional observations from a re-analysis of the deposited data

How the results depend on the processing

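No promoter, flank, or region was called at an adjusted p under 0.05 under any alternative that was run. For sites, leaving out 1 sample gave 0 to 3 calls of the whole table (1 without Space replicate 2, 3 without Space replicate 3, and 3 without Ground replicate 1), none at a regulator gene, and the cause was not tested. The 13 named differences were picked by small p in these same data, so a kept direction gives them no support. With edgeR, the replicate block, or 1 or more sites per gene, the difference equals the main one by construction. All 13 differences kept their direction in 141 fits, with an adjusted p of 0.519 to 0.999 (quasi-binomial test, edgeR, or limma). Their size moved by more than 1.5 times in *Lhx9* (-2.09 to -4.08 percentage points with 20 reads), *Gata2* (1.22 to 0.682 with 5 reads), and *Sox4* (-2.69 to -1.66 with 5 reads and -0.581 with 20 reads), beside *Sox11* and *Sox4* without single samples, as given above; limma's log2 values are on another scale.

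The share of regulator promoters under 10% was 95% with a coverage minimum of 5 reads and 95.9% with means of site levels. For regulator flanks it was 78.9% with 5 reads, 94.8% with 20 reads, 82.2% with 1 or more sites, and 81.5% with means of site levels. The median of flank minus promoter was 1.27 percentage points with 5 reads and 0.967 with 1 or more sites. The mean difference over regulator promoters was -0.237 to 0.145 percentage points when 1 sample was left out, and over flanks -0.197 to 0.302, so its sign depended on the samples kept. Pooling reads over the sites gave 0.0779 for promoters and 0.0504 for flanks, and 20 reads gave 0.117 for flanks, all above 0 where the main values were below it.

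Counts at an unadjusted p under 0.05 moved by more than 1.5 times in some settings: 189 flanks with 20 reads and 562 with 1 or more sites (main 307), 1831 regions with 20 reads and 4306 with the replicate block (main 2776), and 1617 sites with 20 reads and 1385 at levels of 20% to 80% (main 5161). Among regulators, these counts were 1 flank with edgeR or limma and 6 with 1 or more sites (main 3), 15 regions with gaps to 300 bp (main 23), and 4 sites with 20 reads, 3 at levels of 20% to 80%, and 20 with the replicate block (main 10). Over all genes, edgeR and limma had 244 and 277 flanks. The coverage minimum, the number of sites, the gap, and the level range also change how many features are tested. A moved count under these settings is thus not a moved share. Whether same-numbered samples of the groups are pairs is not stated. Their library labels carry consecutive numbers, and replicate 1 had the highest mean promoter level in both groups. The correlations of their promoter deviations were 0.153, 0.0458, and 0.0112, and those of differently numbered samples ran from -0.15 to 0.10. The main tests did not treat them as pairs, and whether they shared a batch was not tested. With the replicate block there were 0 calls at promoters, flanks, regions, and sites. In that quasi-binomial fit 1052 promoters, 398 flanks, and 5884 sites had an unadjusted p under 0.05. The mean differences of -0.0542 and -0.0236 could not change, as the mean of 3 paired differences equals the difference of the group means.

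Coverage limits single sites: regulator genes without dense runs rest on few sites, and 5 promoters and 8 flanks had only 1 or 2.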

Other observations

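Transcripts whose names mark them as opposite-strand, antisense, or overlapping partners of regulator genes took 566 sites that lay closer to their own TSS, in 14 genes, and these sites were not counted for the regulators. Their levels ran from 1.93% in *Gata6os* over 135 sites to 98.1% in *Sox5os3* over 2 sites. *Emx2os* had 2.89% over 52 sites and *Six3os1* 5.17% over 38 sites, whereas *Six3*, a gene of the eye and forebrain, kept 1 promoter site of its own, at 0.725%. *Tbx3os1* had 17.3% over 34 sites, while the promoter of *Tbx3*, a gene of the limb and mammary gland, had 2.01%. *Dlx4os* had 9.63% over 30 sites, between the low promoter of *Dlx4* and its methylated upstream sites.

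Sites farther than 5 kb were outside the limits used above. At 10 to 20 kb, 36 regulator genes had a median of 48.4%, against 93.6% in all genes, and beyond 20 kb 41 regulator genes had a median of 69.1%, against 85.3%. At single sites on both sides, the mean level of regulator genes was 8.34% at 4 to 5 kb and 8.39% at 5 to 10 kb. Upstream alone, the mean of sites was 12.3% at 5 to 4 kb, over 15 genes, and 33.5% at 6 to 5 kb, over 5 genes. Some bins farther away held few regulator genes and were above all genes, such as 17 to 16 kb upstream, where 3 regulator genes had a mean of 97.0% against 70.9%.

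Single sites near 0% lay next to methylated sites in 3 regulator genes, and in *Tbx19* the site lay between them. In *Emx2*, the site 2551 bp upstream had 99.03% and the site 2497 bp upstream had 1.86%. In *Pax7*, the site 3211 bp downstream had 0.407% and the next 3 sites, to 3236 bp, had 94.0% to 96.8%. In *Tbx19*, the site 4450 bp upstream had 1.28%, and the sites 4522, 4485, and 4431 bp upstream had 85.7%, 95.8%, and 97.5%. Both groups showed the same pattern, and its cause was not tested.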
